A study of Mus musculus with 6 samples.

Results

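The blood clotting system was described here through 33 genes of clotting factors, anticoagulants and fibrinolysis proteins other than serpins, chosen by name from 48353 genes in the deposited files. Their reads were followed in 6 hepatocyte samples, 3 with a Bim knock-out and 3 wild-type, all of the C57BL/6 strain. In the knock-out group floxed Bim alleles (Bim lox/lox; symbol Bcl2l11) had been deleted with Alb-Cre, a recombinase driven by the albumin promoter and hence active in hepatocytes. The labels call the second group wild-type and do not say whether it carried Alb-Cre or the floxed alleles. Per the labels' protocols the mice were male, hepatocytes were freed by collagenase perfusion, and some animals were fed chow and others a high-fat diet. The labels give neither the diet nor the age of any single sample, so diet and genotype cannot be told apart here. Whether the samples stem from separate animals is not stated, so every p-value refers to the spread among these 6 samples, part of which may be technical.

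Hepatocytes make most proteins of the clotting cascade and secrete them into plasma. A chain of serine proteases ends in thrombin, which is cut from prothrombin and turns fibrinogen into fibrin. Several of these proteases and their inhibitors need vitamin K to carboxylate glutamate residues before secretion. Plasmin, cut from plasminogen, dissolves the clot. Other parts of the system, such as von Willebrand factor, thrombomodulin and tissue plasminogen activator, are known mainly from endothelium, and the urokinase receptor from myeloid cells.

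The libraries held 25335211 to 28245264 estimated reads in knock-out libraries and 28131355 to 31130519 in wild-type libraries. Bcl2l11, the targeted gene, had no read assigned in any knock-out library (0 in each) and 0, 680 and 478 estimated reads in wild-type replicates 1, 2 and 3. Its locus has 8 annotated transcripts, where an exact 0 may be a failed estimate, so these values do not check the label of wild-type replicate 1 or of the knock-out libraries. Hepatocyte markers were abundant in every library, with a summed level over 15 genes of 31601 to 46169 RPKM in knock-out libraries and 25242, 58620 and 25823 RPKM in wild-type replicates 1 to 3 (RPKM divides the reads by transcript length and by library size). Wild-type replicate 1 stood apart. The 17 macrophage markers summed to 161 to 224 RPKM in the 3 knock-out and the other 2 wild-type libraries, against 4706 RPKM in wild-type replicate 1, and 1 of them, Fcer1g, was at 0 in all libraries. Of 14 endothelial markers 8 were at 0 in all libraries, Pecam1, Kdr and Tie1 among them, and the list summed to 0.897 to 79.3 RPKM in knock-out libraries and 3.69 to 199 RPKM in wild-type. Of 12 stellate markers 11 were at 0 throughout, and the 10 platelet markers summed to at most 0.784 RPKM in any library, with 5 of them, Pf4 included, at 0 throughout. The 8 biliary markers summed to 50.7 to 551 RPKM in knock-out libraries and 123 to 367 RPKM in wild-type libraries, with Krt7 and Krt19 at 0. Neutrophil markers (9 genes) were above 0 in wild-type replicate 1 alone (13.6 RPKM), lymphocyte markers (8) summed to at most 0.143 RPKM, and red cell markers (7) to at most 4.97 RPKM. In such bulk samples, fewer cells of a type and less RNA per cell cannot be told apart.

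The genes of the 3 fibrinogen chains, which lie beside each other on chromosome 3 and were each lowest in wild-type replicate 1, are shown by the 250 bases before their RefSeq starts (sequence from RefSeq, GRCm38.p6, 5′ to 3′ on the gene's strand). Cpb2 on chromosome 14, the steadiest of the 14 genes tested in every library, is given for comparison. The windows are chr3:83025903-83026152 on the plus strand for Fga, chr3:83049864-83050113 on the minus strand for Fgb, chr3:83007474-83007723 on the plus strand for Fgg and chr14:75242037-75242286 on the plus strand for Cpb2. Capitals mark matches, on either strand, to the C/EBP motif TTGCNNAA and the type II interleukin-6 element CTGGGAA; the TATA box letters TATAAA were searched as well and matched in none of the 4.
Fga: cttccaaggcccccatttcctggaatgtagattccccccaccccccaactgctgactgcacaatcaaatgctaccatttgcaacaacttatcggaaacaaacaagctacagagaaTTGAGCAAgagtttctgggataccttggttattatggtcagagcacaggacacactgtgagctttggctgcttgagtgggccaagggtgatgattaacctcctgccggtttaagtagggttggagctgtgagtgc
Fgb: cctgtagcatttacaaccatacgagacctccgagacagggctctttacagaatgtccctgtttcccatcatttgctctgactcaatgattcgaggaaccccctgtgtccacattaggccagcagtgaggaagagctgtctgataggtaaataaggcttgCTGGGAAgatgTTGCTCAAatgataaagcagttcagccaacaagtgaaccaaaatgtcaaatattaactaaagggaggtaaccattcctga
Fgg: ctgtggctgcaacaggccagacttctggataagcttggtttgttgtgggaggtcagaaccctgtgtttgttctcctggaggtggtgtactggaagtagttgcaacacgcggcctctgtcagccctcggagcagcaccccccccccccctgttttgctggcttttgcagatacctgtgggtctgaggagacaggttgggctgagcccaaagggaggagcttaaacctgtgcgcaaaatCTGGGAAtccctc
Cpb2: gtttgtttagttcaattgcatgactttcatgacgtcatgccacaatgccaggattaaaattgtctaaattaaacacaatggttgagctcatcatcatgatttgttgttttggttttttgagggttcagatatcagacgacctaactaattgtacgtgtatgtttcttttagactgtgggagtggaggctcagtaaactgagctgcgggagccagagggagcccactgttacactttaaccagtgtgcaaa
The Fga window held 1 C/EBP match, starting 135 bases before the RefSeq start. In the deposited annotation the Fga transcript ENSMUST00000029630 starts at 83026076, inside this window, so that distance holds for the RefSeq start alone. The Fgb window held 1 C/EBP match at 80 bases and 1 interleukin-6 element at 91 bases, while the Fgg window held 1 interleukin-6 element at 13 bases. The Cpb2 window held none of these letters. Among all 32851 promoter windows of this length, 9.56% held TTGCNNAA, 9.1% CTGGGAA and 12.4% TATAAA. No 2 of the matches overlapped. A match describes the letters of the window and does not show a bound factor. These 4 genes were picked with their levels in these libraries known, and the windows of the other members are not shown. A link between the matches and the levels was not tested.

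How far the 33 genes could be read depended on their annotation. Reads were found in every library for 16 genes, in some libraries for 13 and in none for 4 (F8, F13a1, Tfpi and Vkorc1). The 8 genes that are the lone transcript of their locus were above 0 in all 48 library values. The 25 genes at loci with 2 or more annotated transcripts were listed at 0 in 73 of 150 values (48.7%). For the 19 of them whose mean reached 1 RPKM the share was 38.6% (44 of 114 values), close to the 34.2% of all genes at such loci with that mean. At loci with 1 transcript it was 0.0447% for all genes with that mean. A value of exactly 0 at a locus with several transcripts may therefore be a failed estimate, so such genes are described library by library, without a mean or a fold. Of the 125 values above 0, 111 were whole even numbers (within 0.001), and the sources used here do not say whether 1 sequenced read was entered as 2.

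**Figure D1:**
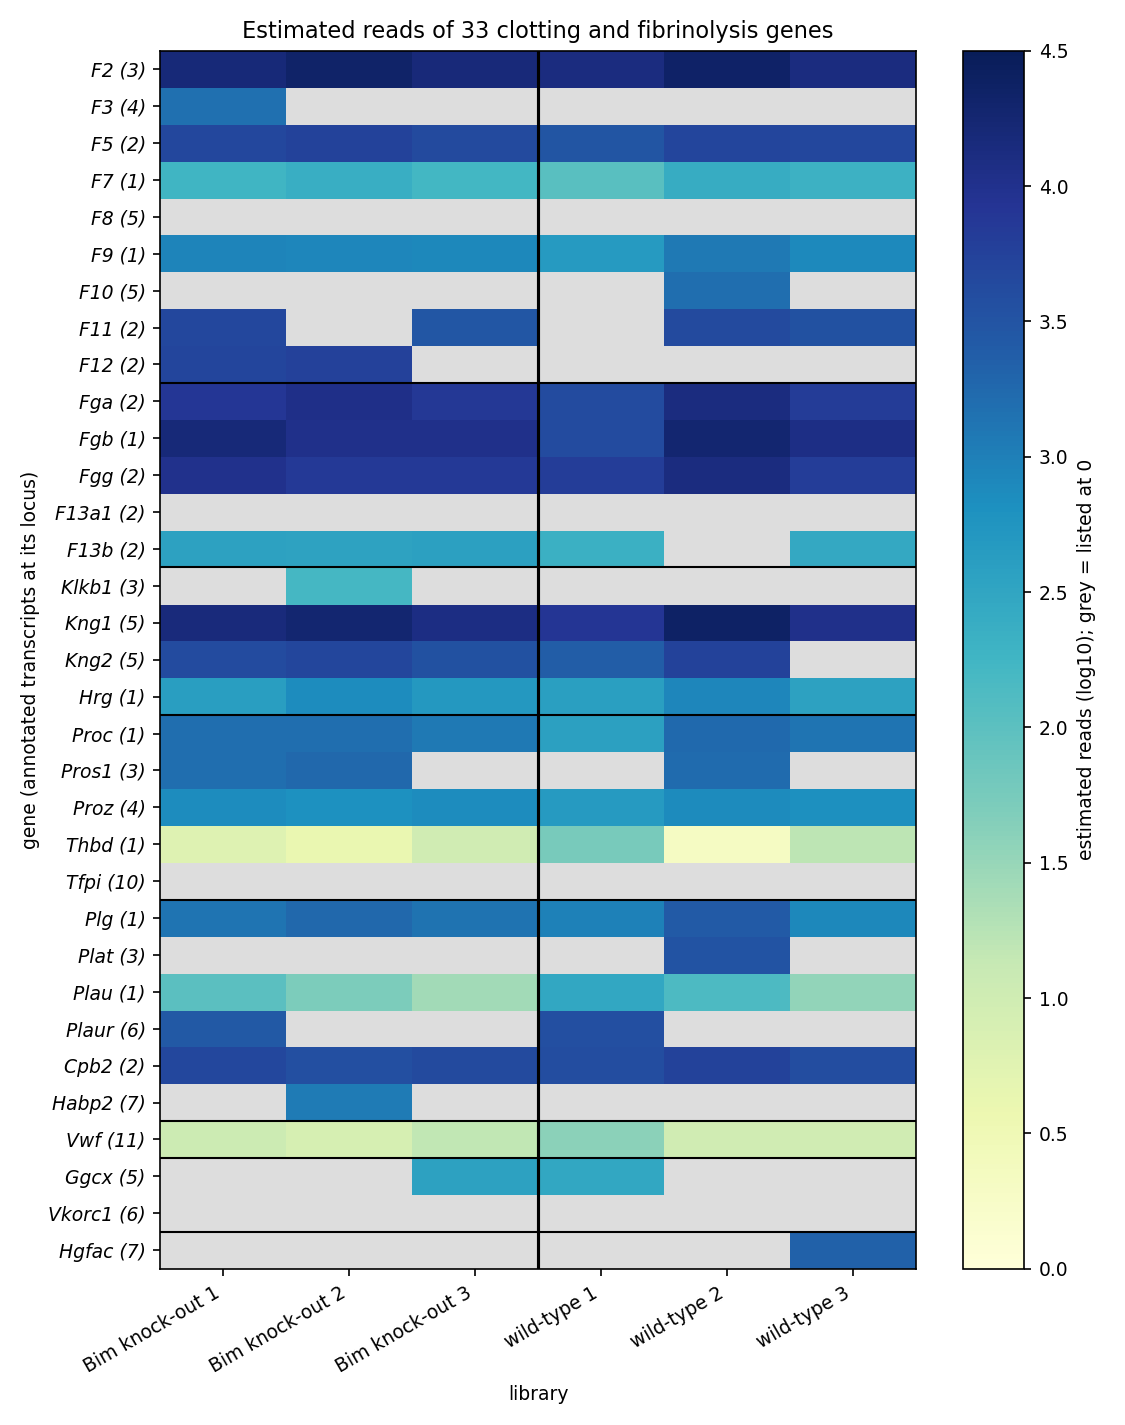
Estimated reads (log10 colour scale) of the 33 genes in 3 Bim knock-out libraries (left) and 3 wild-type libraries (right), grouped by role, with the number of annotated transcripts at the locus in brackets; grey cells were listed at 0. The 8 genes with 1 transcript at their locus have no grey cell, and 4 genes are grey in all 6 libraries.

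No clotting or fibrinolysis gene passed the test for a difference between knock-out and wild-type hepatocytes. Of the 26 genes whose mean reached 1 RPKM, 0 passed limma on log2(RPKM + 1) at a Benjamini-Hochberg adjusted p below 0.05, and 0 had an unadjusted p below 0.05; the corresponding shares of all 11021 tested genes were 0.789% and 1.89%. With voom weights on the estimated reads 0 of the 26 passed and 0 had an unadjusted p below 0.05, against 0.744% and 3.63% of the 11021. Of these 26 genes 14 were above 0 in all 6 libraries, and in the limma fit of the 5538 tested genes so read 0 of the 14 passed (adjusted p = 0.996 for each), with 0 at an unadjusted p below 0.05 in limma and 0 in voom. In that fit limma passed 0% of all genes, and 2.35% were below 0.05 before adjustment, against 0% and 1.26% with voom. The groups overlapped for each of the 14, so 0 were separated, where 5.94% of the 5538 were. The difference, knock-out minus wild-type, was positive for 13 and negative for 1 (Plau), with a median of 0.25 on the log2 scale, against 50.2% positive and a median of 0.00 for the 5538.

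That tilt rested on wild-type replicate 1. Without this library the difference was positive for 7 of the 14 genes and negative for 7, with a median of 0.00, against 56.3% positive and a median of 0.02 for the 5538 genes. Without wild-type replicate 2 it was positive for 13, with a median of 0.47, against 41.4% positive and a median of -0.04 for the 5538. Fga, Kng1 and Plg then had unadjusted p of 0.0452, 0.0479 and 0.00701, and limma adjusted p of 0.799 each; 3.61% of the 5538 genes had an unadjusted p below 0.05 in the same fit. Wild-type replicate 1 was the lowest library for 10 of the 14 genes and for 21.8% of the 5538, and wild-type replicate 2 was the highest for 8 of the 14 and for 8.79% of the 5538. The spread on the log2 scale was thus larger among wild-type than among knock-out libraries for each of the 14 genes, against 66.3% of the 5538.

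By their median, the 14 genes had their highest and lowest levels in the same libraries as the hepatocyte markers. Single genes differed, with 8 of the 14 highest in wild-type replicate 2 and 10 lowest in wild-type replicate 1. As a median deviation of a gene from its mean over the libraries (log2 scale), the 14 stood at 0.10, 0.31 and 0.06 in knock-out replicates 1 to 3 and at -0.56, 0.45 and -0.22 in wild-type replicates 1 to 3. The mean level of 9 hepatocyte markers read in every library was 9.75, 9.61 and 9.43 in knock-out libraries and 8.89, 9.98 and 9.37 in wild-type libraries (log2 scale). Wild-type replicate 2 was the highest and wild-type replicate 1 the lowest. The mean level of 8 macrophage markers was 3.42, 3.29 and 4.13 in knock-out libraries and 7.27, 3.26 and 3.94 in wild-type libraries. A setting chosen after seeing the data took each library relative to the hepatocyte markers. It subtracts the same value from every gene of a library and so lowers all differences by the same amount. The difference was then positive for 9 and negative for 5 of the 14 genes, with a median of 0.06. Of the 5538 genes 18.2% were positive, with a median of -0.18. In the main fit these medians were 0.25 and 0.00, and the gap between the 14 and the 5538 genes cannot change in this setting. The part of other cells in these levels was not tested.

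**Figure D2:**
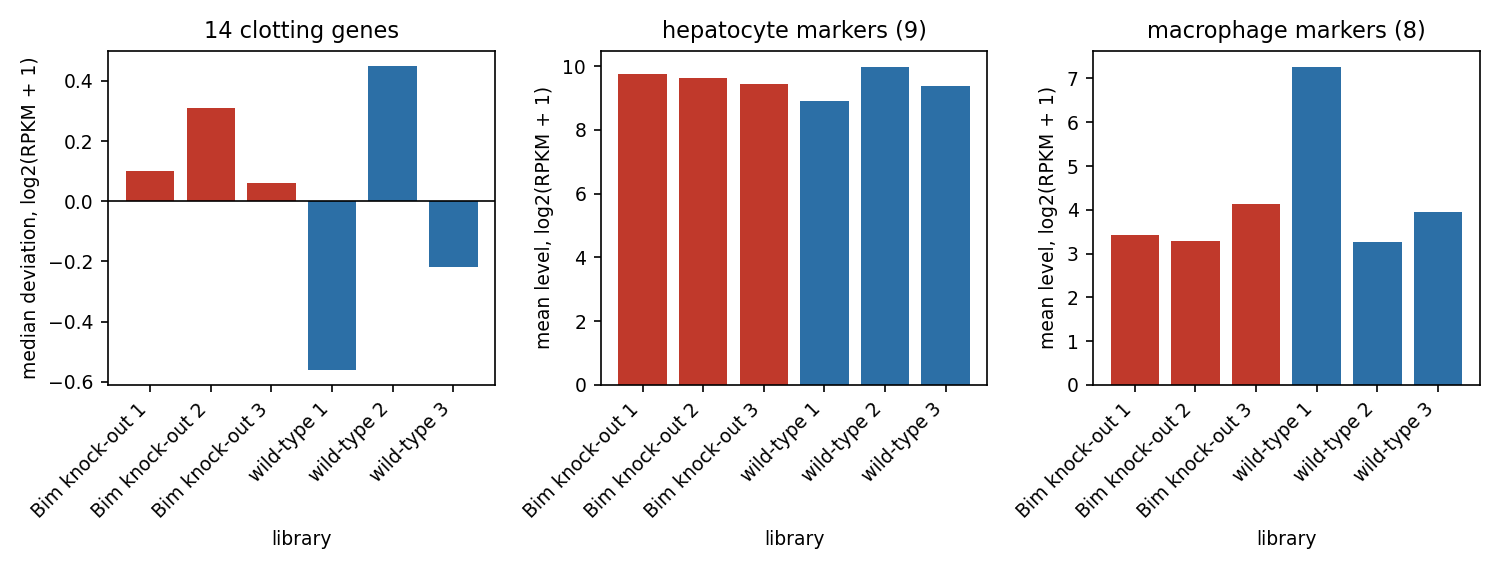
Level in each library of the 14 tested clotting genes read in every library (left, median deviation from each gene's mean over 6 libraries), of 9 hepatocyte markers (middle) and of 8 macrophage markers (right, mean level), all as log2(RPKM + 1), with knock-out libraries in red and wild-type libraries in blue. Wild-type replicate 1 is lowest for the clotting genes (-0.56) and highest for macrophage markers (7.27).

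Levels scaled to transcript length spanned a wide range among these 14 genes. Prothrombin (F2) and kininogen 1 (Kng1) led with means over the 6 libraries of 419.5 and 391.2 RPKM, and F2 was above Kng1 in 5 of the 6. The fibrinogen genes followed, Fgg with a mean of 238.2 RPKM, Fga with 171.6 and Fgb with 150.6, with Fgg above Fga in 5 libraries and Fga above Fgb in 4. Cpb2 (144.4 RPKM) was below Fgb in 4 libraries and above Proc (40.21) in all 6. Then came F5 (29.75), Plg (26.48), Hrg (15.07), F9 (14.78), Proz (9.725), F7 (4.962) and Plau (2.206). Hrg and F9 could not be ranked, with Hrg above F9 in 3 libraries and below it in 3.

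**Figure D3:**
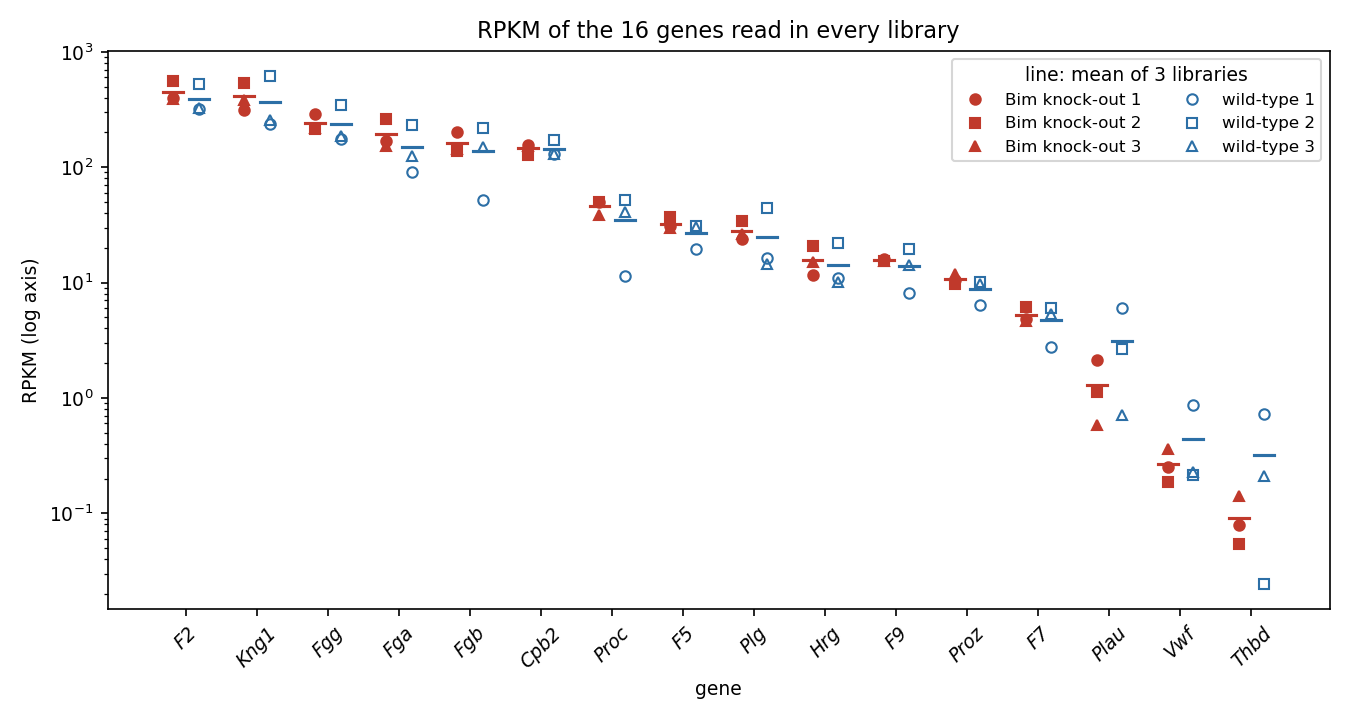
RPKM (log axis) of the 16 genes above 0 in all libraries, ordered by mean, with knock-out libraries as filled red symbols left of wild-type libraries as open blue symbols and the mean of 3 libraries as a line. Wild-type replicate 1 (open circle) lies low for most hepatocyte-made factors, for instance Proc at 11.4 RPKM, and high for Plau at 6.03 RPKM.

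Among the clotting factors, F2 (ENSMUSG00000027249; chromosome 2, 91625320 to 91636414, minus strand), the precursor of thrombin, had 398, 555 and 390 RPKM in knock-out libraries and 322, 525 and 327 RPKM in wild-type libraries. The groups overlapped, with wild-type replicate 2 near the knock-out maximum. The difference was 0.21 on the log2(RPKM + 1) scale (SE 0.26, 95% interval -0.42 to 0.85). F5 (ENSMUSG00000026579; chromosome 1, 164151838 to 164220277, plus strand), the cofactor of factor Xa, had 30.7, 36.7 and 29.8 RPKM in knock-out libraries and 19.6, 31.1 and 30.6 in wild-type libraries. Wild-type replicate 1 alone lay below the others, and without it the difference of F5 was 0.06. With all libraries it was 0.27 (95% interval -0.24 to 0.78). In wild-type replicate 1, 95 further reads of the F5 locus were assigned to an overlapping gene model, Gm16588. F7, which starts the cascade with tissue factor, was the lowest of the 4 clotting factors F2, F5, F7 and F9 read in every library, at 4.79, 6.19 and 4.64 RPKM in knock-out libraries and 2.77, 6.04 and 5.34 RPKM in wild-type libraries. F9, the factor missing in haemophilia B, averaged 15.66 ± 0.340 RPKM in knock-out, against 13.9 ± 5.64 RPKM in wild-type (SD, n = 3 each). Its knock-out values were nearly equal while the wild-type values ran between 8.14 and 19.4 RPKM, and the difference changed sign to -0.08 without wild-type replicate 1.

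The remaining clotting factors had exact zeros. F11, which activates factor IX, had 4618, 0 and 2962 estimated reads in knock-out libraries and 0, 4294 and 3420 in wild-type libraries. F12, the starter of the contact pathway, had 5078 and 5746 reads in knock-out replicates 1 and 2 and was listed at 0 in the other 4 libraries. Its limma adjusted p was 0.941, and without knock-out replicate 3 it was 0.00424; without any other single library it was 0.842 or more. F12 has 2 transcripts at its locus, so that call rests on zeros that may not have been measured. F10, the protease that cuts prothrombin, had 1548 reads in wild-type replicate 2 alone, and F3, tissue factor, had 1480 in knock-out replicate 1 alone. F8, the cofactor that factor IXa needs and a product of liver endothelium, was listed at 0 in all 6 libraries.

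The fibrinogen genes were each lowest in wild-type replicate 1, and none passed the test. Fga (ENSMUSG00000028001; chromosome 3, 83026076 to 83033627, plus strand), of the alpha chain, had 168, 264 and 152 RPKM in knock-out libraries and 91.3, 230 and 124 RPKM in wild-type libraries. Fgb (ENSMUSG00000033831; 83040141 to 83049863, minus strand), of the beta chain, had 203, 139 and 144 RPKM in knock-out libraries and 52.3, 217 and 149 in wild-type libraries. Fgg (ENSMUSG00000033860; 83007724 to 83015049, plus strand), of the gamma chain, had 290, 213 and 219 RPKM in knock-out libraries and 175, 347 and 187 in wild-type libraries. In each of the 3 the wild-type values lay both below and above most knock-out values. The differences of Fga, Fgb and Fgg were 0.45, 0.41 and 0.08 (SE 0.39, 0.53 and 0.30). Without wild-type replicate 1 they were 0.16, -0.18 and -0.10.

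As a share of all estimated reads the 3 fibrinogen genes took 0.1185%, 0.1038% and 0.1003% of the knock-out libraries and 0.05155%, 0.1427% and 0.08802% of the wild-type libraries. The means were 0.1075% ± 0.00966 in knock-out libraries and 0.09409% ± 0.0459 in wild-type (SD, n = 3 each), and 0.1154% in wild-type without replicate 1. All 33 genes together took 0.3294% ± 0.0358 in knock-out libraries and 0.275% ± 0.111 in wild-type (SD, n = 3 each). Exact zeros that are failed estimates would lower these sums, and how many are was not tested. These shares are given without a test. F13b, the carrier subunit of the enzyme that cross-links fibrin, had 358, 352 and 372 reads in knock-out libraries and 212, 0 and 286 in wild-type libraries. Knock-out values of F13b lay above all wild-type values, as did the values of 1 group in 5.46% of all tested genes in either direction, and 1 of the wild-type values was an exact 0 at a locus of 2 transcripts (limma adjusted p = 0.941). F13a1, the catalytic subunit and known from macrophages and platelets, was listed at 0 in all 6 libraries, wild-type replicate 1 included.

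Which transcript received the reads of Fga and Fgg changed from library to library. In Fgg all reads went to ENSMUST00000048486 in knock-out replicate 1 and wild-type replicate 3, and to ENSMUST00000194175 in the other 4 libraries. In Fga, ENSMUST00000029630 received all 10912 reads in knock-out replicate 2 and none in knock-out replicate 3, where all 7556 went to ENSMUST00000166581, whose length is 2587 bases against 2083. RPKM of such genes depends on this assignment. On reads scaled to library size alone, not to length, the differences of Fga and Fgg were 0.41 and 0.09, and that of Kng1 was 0.33 instead of 0.25.

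**Figure D4:**
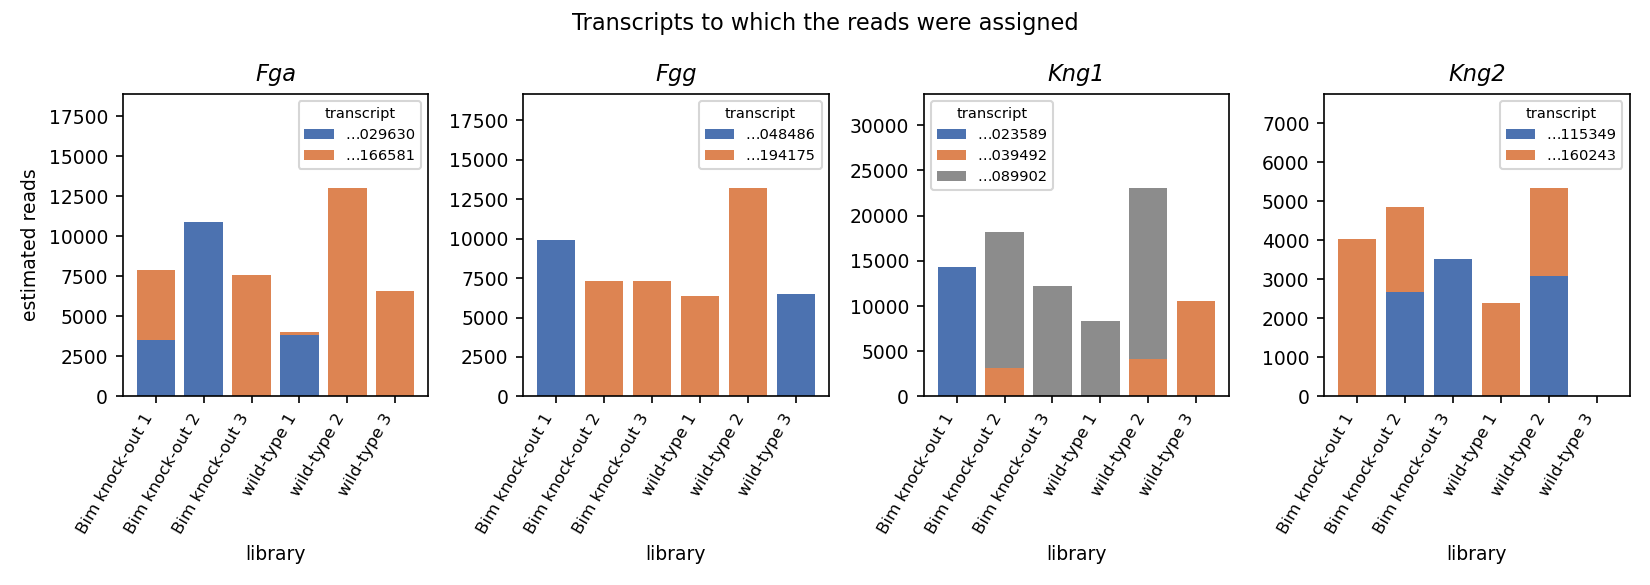
Estimated reads of Fga, Fgg, Kng1 and Kng2 in 3 knock-out libraries (left bars) and 3 wild-type libraries (right bars), stacked by the annotated transcript they were assigned to (last 6 digits of its identifier). In Fgg each library has a single transcript, ENSMUST00000048486 in 2 libraries and ENSMUST00000194175 in 4, and Kng2 has no reads in wild-type replicate 3.

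In the contact system, Kng1 (ENSMUSG00000022875; chromosome 16, 23057865 to 23082068, plus strand), the precursor of bradykinin, had 14358, 18221 and 12225 estimated reads in knock-out libraries and 8293, 23107 and 10561 in wild-type libraries. The wild-type libraries enclosed the knock-out values on both sides. The difference on the log2(RPKM + 1) scale was 0.25 (SE 0.42), and 0.01 without wild-type replicate 1. Kng2, a close copy of Kng1 at 22985854 to 23029101 on the minus strand, had 4035, 4857 and 3515 reads in knock-out libraries and 2401, 5352 and 0 in wild-type libraries. Reads can be shared between such copies, so the split between Kng1 and Kng2 is uncertain. Hrg, which lies near Kng2 and Kng1 on chromosome 16, encodes the histidine-rich glycoprotein that binds plasminogen and fibrinogen. It had 11.6, 20.8 and 15.1 RPKM in knock-out libraries and 11, 21.9 and 10.2 RPKM in wild-type libraries. Klkb1, plasma prekallikrein, had 161 reads in knock-out replicate 2 and 0 in the other 5 libraries. It shares a locus of 3 transcripts with Cyp4v3, to which 7566, 7229 and 5756 reads were assigned in knock-out libraries and 4456, 6788 and 6646 in wild-type libraries, so the division of reads between Klkb1 and Cyp4v3 is uncertain.

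Of the anticoagulants, Proc, the vitamin K-dependent protease that cleaves factors Va and VIIIa, had the largest positive difference among the 14 tested genes, and it did not hold without 1 library. Proc had 49.5, 49.8 and 38.4 RPKM in knock-out libraries and 11.4, 51.7 and 40.6 in wild-type libraries. A single library, wild-type replicate 1, lay far below the other 5, which overlapped. The difference was 0.63 (SE 0.55, 95% interval -0.70 to 1.96), and -0.01 without that library. Pros1, the cofactor of activated protein C, had 1536, 1808 and 0 reads in knock-out libraries and 0, 1690 and 0 in wild-type libraries. Proz, a cofactor in the inhibition of factor Xa, averaged 10.69 ± 1.10 RPKM in knock-out, against 8.765 ± 2.05 RPKM in wild-type (SD, n = 3 each), a difference of 0.28 (95% interval -0.17 to 0.73). It lies beside F7 and F10 on chromosome 8, where F7 and Proz were read in every library and F10 in 1. Tfpi, the inhibitor of the tissue factor complex, has 10 transcripts at its locus and was listed at 0 in all libraries.

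In fibrinolysis, Plg (ENSMUSG00000059481; chromosome 17, 12378609 to 12419384, plus strand), the precursor of plasmin, had 23.9, 34 and 26.1 RPKM in knock-out libraries and 16.2, 44.4 and 14.4 RPKM in wild-type libraries. Here wild-type replicates 1 and 3 were both below the knock-out libraries and replicate 2 above them. The difference was 0.33 (SE 0.43), 0.12 without wild-type replicate 1 and 0.82 without wild-type replicate 2. Cpb2, the carboxypeptidase that protects fibrin from plasmin, was the steadiest gene, at 157, 127 and 153 RPKM in knock-out libraries and 129, 171 and 130 RPKM in wild-type libraries. Its highest library was 1.35 times its lowest, against 4.53 times for Proc and 4.16 times for Fgb. The difference of Cpb2 was 0.03 with a 95% interval of -0.40 to 0.45, so that a change of RPKM + 1 of 2-fold lay outside it. The interval lay within a 2-fold change either way for 7 of the 14 genes, against 4354 of the 5538. Habp2, a plasma protease that binds hyaluronan, had 1110 reads in knock-out replicate 2 alone.

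**Figure D5:**
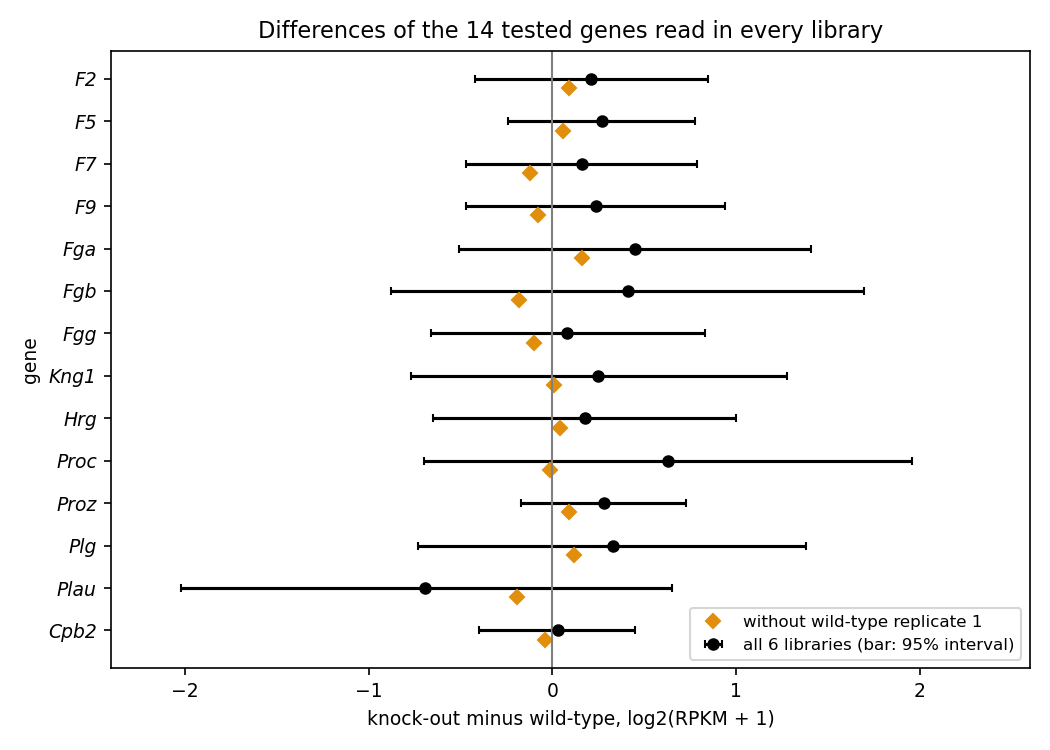
Difference of the 14 tested genes read in every library, knock-out minus wild-type on the log2(RPKM + 1) scale, with the 95% interval of the limma fit (black) and the value without wild-type replicate 1 (orange diamonds). All 14 intervals include 0, and without that library the values lie between -0.19 and 0.16.

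Plau, Plaur, Thbd and Vwf, known mainly from cells other than hepatocytes and named together after their values were seen, each had the most reads in wild-type replicate 1. Plau, the urokinase that activates plasminogen, had 102, 52 and 26 estimated reads in knock-out libraries and 296, 136 and 34 in wild-type libraries. The groups overlapped. The difference was -0.69 (SE 0.54, 95% interval -2.02 to 0.65), and -0.19 without wild-type replicate 1. Plaur, the urokinase receptor, had 2748 reads in knock-out replicate 1, 3578 in wild-type replicate 1 and 0 in the other 4 libraries. Thbd, thrombomodulin, which turns thrombin into an activator of protein C, had 6, 4 and 10 reads in knock-out libraries and 56, 2 and 16 in wild-type libraries. Vwf, the platelet-binding von Willebrand factor, had 11, 8 and 15 reads in knock-out libraries and 39, 10 and 10 in wild-type libraries. Thbd and Vwf had mean levels of 0.2042 and 0.3525 RPKM, below the minimum for the test. Macrophage markers summed to 4706 RPKM in wild-type replicate 1. The 14 endothelial markers summed to 46.9, 0.897 and 79.3 RPKM in knock-out libraries and 149, 199 and 3.69 RPKM in wild-type libraries, highest in wild-type replicate 2, with 8 of them at 0 in all libraries. Fcgr2b, the 1 marker of that list read in every library, had a level of 1.39, 0.92 and 1.36 in knock-out libraries and 4.11, 1.04 and 1.5 in wild-type libraries (log2 scale). The part of these cells in the values was not tested. Plat, tissue plasminogen activator and also known from endothelium, had 3176 reads in wild-type replicate 2 and 0 elsewhere, and F8 and F13a1 were at 0 in wild-type replicate 1 as in the other libraries.

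The vitamin K cycle could not be followed. Ggcx, the carboxylase, had 0, 0 and 356 reads in knock-out libraries and 296, 0 and 0 in wild-type libraries, and Vkorc1, the reductase that warfarin inhibits, was listed at 0 in every library. The 296 reads of Ggcx were assigned to a transcript of 569 bases and the 356 to another of 2929 bases, which gave 24.8 RPKM for the smaller read number and 6.32 RPKM for the larger. Hgfac, a thrombin-activated protease related to factor XII, had 2138 reads in wild-type replicate 3 alone.

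No companion gene of the system passed the test. Of 29 inhibitors, receptors and processing genes in a fixed list, 24 were tested and 0 passed limma (smallest adjusted p 0.941). The unadjusted limma p was below 0.05 for 0 of the 24. The corresponding shares of all 11021 tested genes were 0.789% and 1.89%. In the fit of genes above 0 in every library 10 were tested, 9 with a positive and 1 with a negative difference. Their median was 0.18, against 50.2% positive and a median of 0.00 for the 5538 genes. Wild-type replicate 1 was the lowest library for 5 of the 10, against 21.8% of the 5538. Their differences without that library are not given. The 4 with the smallest p were Gas6, a vitamin K-dependent growth factor, S100a10, a plasminogen receptor, Nqo1, a quinone reductase, and Serpinc1, antithrombin. Gas6 averaged 22.72 ± 4.32 RPKM in knock-out, against 17.4 ± 4.23 RPKM in wild-type (SD, n = 3 each), a difference of 0.37 (SE 0.21, limma adjusted p = 0.996). Serpinc1 had 107, 133 and 107 RPKM in knock-out libraries and 87.5, 150 and 75.4 in wild-type libraries. S100a10 averaged 1287 ± 328 RPKM in knock-out, against 1096 ± 234 RPKM in wild-type (SD, n = 3 each). Nqo1 averaged 19.19 ± 3.08 RPKM in knock-out, against 17.21 ± 3.52 RPKM in wild-type (SD, n = 3 each). Of the transcription factors known to act on clotting genes, Cebpa averaged 18.5 ± 1.15 RPKM in knock-out, against 20.41 ± 8.99 RPKM in wild-type, and Cebpb 19.04 ± 4.32 RPKM in knock-out, against 19.82 ± 9.36 RPKM in wild-type (SD, n = 3 each). Cebpa and Cebpb, which macrophages also express, were highest in wild-type replicate 1 (30.7 and 30.6 RPKM).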

How the data were processed

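Polyadenylated RNA of 6 hepatocyte samples was read from 1 end of each fragment, per the labels. The submitters' processing notes name TopHat2, version 2, and the build GRCm38 (mm10). In the deposited files each transcript carries, as text attributes, a read count, which is an estimate, and its RPKM; the tool that divided reads among transcripts, and whether it used strand, are not given in the sources used here. Depth is the sum of estimated reads, and as they are estimates no counting interval is given. Samples were grouped by title. Reads and RPKM were summed over the transcripts of a gene, and symbols came from a table of Ensembl identifiers, which held all 33 members. Genes whose mean reached 1 RPKM were tested on log2(RPKM + 1), which understates the change of low genes, with limma (version 3.58.1 in R 4.3.3; trend, two-sided, no covariate), on all tested genes and on those above 0 in all 6 libraries. p-values were adjusted over all genes of a fit. limma was checked on simulated data. Alternatives changed pseudocount, filter, scaling, unit, transcript choice, variance model, block, threshold, zeros and libraries. The members, lists, tests and alternatives were chosen with earlier results of these data known, and the setting relative to hepatocyte markers after seeing the values used here. All 33 members are named, with Bcl2l11, the 4 companion genes of smallest p and the transcription factors read in every library, 1 of which is not reported here; Cyp4v3, Gm16588 and marker genes were named after their values were seen. Tables were made with Python 3.11.15, pandas 2.3.3 and numpy 2.4.6.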

Additional observations from a re-analysis of the deposited data

How the results depend on the processing

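None of the 14 clotting genes read in every library passed the limma threshold under any alternative run (0 of 247 values). Of all genes in these fits 0 passed as well, except for 5 of 5538 relative to the hepatocyte markers. The 0 is therefore not particular to the clotting genes. Their differences kept their sign in 230 of 247 values, but several settings could not change it. Another threshold or filter, no variance trend or the replicate block leaves the difference itself as it was. With 1 library left out 13 of 84 values changed sign, 6 of them without wild-type replicate 1. Relative to the hepatocyte markers, the differences of all genes were lowered by the same amount. The small positive differences of F7, Fgg, Hrg and Cpb2 so changed sign to -0.03, -0.10, -0.01 and -0.16. In that setting 5 of all 5538 genes passed instead of 0, none of them a member. With 1 library left out, the differences ranged from 0.05 to 0.45 for F2, 0.06 to 0.38 for F5, -0.12 to 0.33 for F7, -0.08 to 0.50 for F9, 0.16 to 0.82 for Fga, -0.18 to 0.84 for Fgb, -0.10 to 0.40 for Fgg, 0.01 to 0.69 for Kng1, -0.03 to 0.51 for Hrg, -0.01 to 1.04 for Proc, 0.09 to 0.39 for Proz, 0.04 to 0.82 for Plg, -1.21 to -0.19 for Plau and -0.04 to 0.16 for Cpb2. Over all tested genes 87 passed, 0 with exact zeros at loci of 2 or more transcripts taken as missing, and 182 to 207 with 1 library left out, F12 among them in 1 of the 6 cases; over the genes above 0 in every library 0 passed with any library left out. The sample titles number the replicates without saying whether same-numbered samples were paired. Same-numbered deviations from the group means correlated at -0.158, -0.0488 and -0.0053, and knock-out replicate 1 correlated best with wild-type replicate 2 (0.312). With means of 3 libraries per group, such correlations cannot decide on a pairing. With the replicate block 0 of 11021 genes passed, and no member's call changed. The block lowered the SE of Fga from 0.39 to 0.21 and raised that of Fgb from 0.53 to 0.57. Plau then had an unadjusted limma p of 0.0495 (adjusted p 0.999), where 157 of the 5538 genes were below 0.05. The share of reads in the fibrinogen genes, knock-out minus wild-type, was 0.0134 percentage points and ranged from -0.00783 to 0.0377 with 1 library left out, and that of all 33 genes was 0.0543 and ranged from 0.0102 to 0.117. The transcript with the most reads alone gave no value for Fga, Fgg and Kng1, and a minimum of 5 RPKM none for F7 and Plau. Genes with exact zeros limit what can be said of F8, F10, F11, F12, Pros1, Tfpi and the vitamin K cycle.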
